A study of Danio rerio with 5 samples.

Results

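All GFP-positive cells that had been sorted from whole eyes of Tg[foxc1b:GFP] zebrafish embryos were compared between 48 and 72 h post fertilization (hpf). The members were every cell of the 2 libraries of 48 hpf and of the 2 libraries of 72 hpf, 3137 of the 12234 cells of the series, and their RNA molecule counts (UMIs) were summed per library. The 48 hpf libraries held 842 and 916 cells (1758 in all) and the 72 hpf libraries 722 and 657 (1379 in all). Both time points carried the same transgene, in which regulatory sequence of the forkhead transcription factor gene foxc1b drives GFP, in the AB strain. No embryo was mutant or treated with a test compound, but all were raised in PTU, which blocks melanin formation. Each library came from the pooled eyes of many embryos. The comparison asked which genes differed between the ages across everything that passed the sort, and how much of each difference remained once the mixture of krt5-, col2a1a- and retinal-gene-bearing cells had been held constant.

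foxc1b marks the periocular mesenchyme, a population derived largely from neural crest that wraps the optic cup and gives rise to corneal stroma, corneal endothelium, iris stroma and, in fish, the annular ligament, the counterpart of the mammalian trabecular meshwork. Over the same period the surface of the eye is covered by an epithelium of basal and superficial layers, the retina passes from dividing progenitors to neurons and Mueller glia, and the first cartilage of the head, including that around the eye, lays down its matrix. Keratin gene krt5 marks epithelium, especially its basal layer, and col2a1a encodes the type II collagen of cartilage. The retinal list held 21 genes of progenitors and young neurons such as rx1, atoh7, crx and fabp7a. The paper names fabp7a and cadm3, both in this list, among genes high in its annular ligament class AL1.

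The libraries held 12276692 UMIs, namely 3733652 in 48A, 2576318 in 48B, 3434852 in 72A and 2531870 in 72B. Median UMIs per cell were between 1143.5 and 3302.5. At both ages library A was made with version V2 and library B with version V3 of the 10x chemistry, as named in the deposited table of cells, and all 4 libraries had a different batch code, so that batch and library cannot be told apart. Spread was measured among the 4151 genes with a mean of at least 20 CPM (counts scaled to a common library total after TMM adjustment). At 48 hpf, 16.9% of these differed more than 2-fold between libraries A and B, and at 72 hpf 24.8% did. Between the mean levels of the ages 13.2% differed more than 2-fold, but means of 2 libraries vary less than single libraries. Libraries 48A and 72A shared 2 cell barcodes and the other pairs 0. The added eGFP sequence had 0 UMIs in every library. The sorted cells were labelled as anterior segment mesenchyme, but the mesenchymal marker foxc1b was low in the sums, at 29.0 to 84.2 CPM, against 9212 to 26821 CPM for the superficial keratin krt4. Levels of single genes do not give the mixture of cells, which is described below.

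The share of cells bearing each marker differed between the ages in different ways. Each cell was first thinned to 400 UMIs, so that a deeper cell did not have a better chance of showing a UMI. Cells bearing col2a1a made up 4.45% and 3.49% of the 48 hpf libraries and 9.14% and 17.2% of the 72 hpf libraries, both higher at 72 hpf. Cells bearing any gene of the retinal list made up 41.1% and 54.0% at 48 hpf and 40.2% and 25.3% at 72 hpf, lower at 72 hpf in both libraries but by only a narrow margin between 48A and 72A, and at full depth the libraries overlapped (57.8% and 72.6% against 62.5% and 39.7%). Cells bearing krt5 made up 13.9% and 26.6% at 48 hpf and 22.0% and 24.8% at 72 hpf, so the ages overlapped and the share cannot be ordered by age. As background, cells with at least 2 UMIs of the retinal list carried a krt5 UMI in 2.85%, 13.1%, 8.61% and 13.5% of cases in libraries 48A, 48B, 72A and 72B, with full-depth medians between 1064 and 3939 UMIs, and a col2a1a UMI in 0%, 1.16%, 0% and 4.50%. The krt5 and col2a1a shares of all cells thus stood above this background in every library. Cells with at least 2 krt5 UMIs carried a retinal UMI in 9.33%, 16.5%, 9.09% and 3.45% of cases, below the retinal share of all cells. With 2 libraries an age, an exact permutation test cannot go below 0.333, and no test of a share was run.

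**Figure D1:**
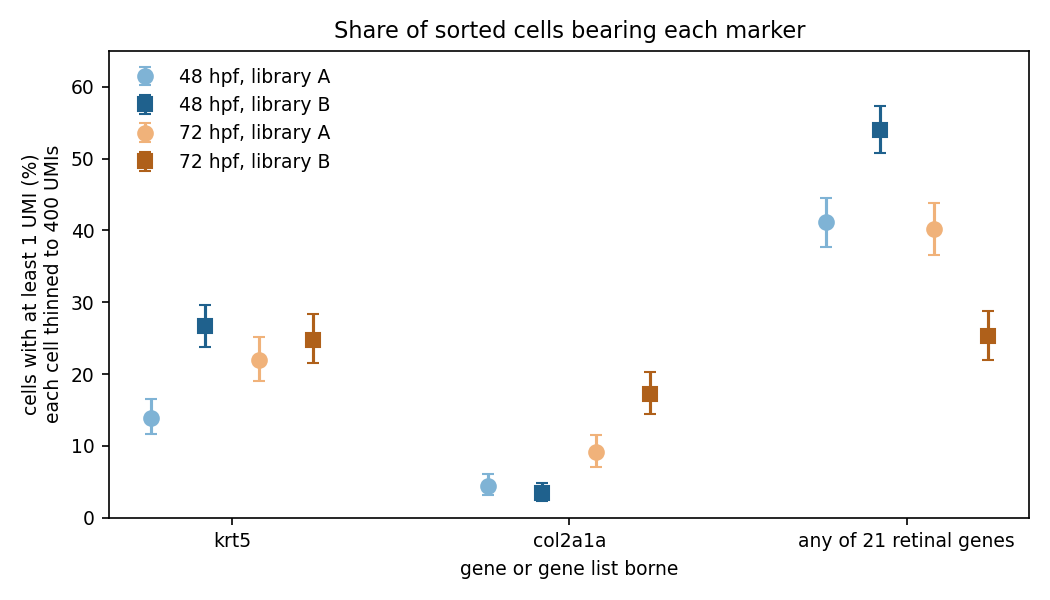
Share of cells with at least 1 UMI of krt5, of col2a1a or of any of 21 retinal genes (y axis, percent, each cell thinned to 400 UMIs), for each library; bars are 95% exact binomial intervals, which cover counting error only. The col2a1a shares of 9.14% and 17.2% at 72 hpf sit above the 4.45% and 3.49% of 48 hpf, while the krt5 shares overlap.

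Shares of cells did not equal shares of RNA. Cells bearing only krt5 gave 17.4% and 31.6% of all UMIs at 48 hpf and 32.0% and 42.2% at 72 hpf. Cells bearing only retinal genes gave 42.6% and 32.7% at 48 hpf and 30.1% and 11.4% at 72 hpf. Cells bearing only col2a1a gave 2.33% and 1.69% against 3.09% and 9.77%, and cells with none of these genes between 28.0% and 34.8% in every library. By RNA, then, all 3 kinds of cell differed between the ages without overlap, with krt5 and col2a1a cells contributing more at 72 hpf and retinal cells less. Between 48B and 72A the margin was narrow for krt5 cells (31.6% against 32.0%) and for retinal cells (32.7% against 30.1%). Both margins were smaller than the spread between libraries of either age. The gene sums alone cannot tell fewer cells of a type from less RNA per cell. Cells bearing only retinal genes were 37.6% and 44.7% of cells at 48 hpf and 34.8% and 20.1% at 72 hpf. Their medians were 4117 and 1282 UMIs against 2878 and 1195.5. Cells bearing only krt5 were 11.2% and 17.6% against 16.8% and 18.9%, with medians of 5850 and 1020 UMIs against 6614 and 1580. UMIs per cell also depend on sequencing depth, so RNA content was not measured.

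Of 8402 genes tested, 1792 (21.3%) were higher in both 72 hpf libraries than in both 48 hpf libraries, and 1443 (17.2%) were lower in both, 38.5% in either direction. Genes higher at 72 hpf differed by more, with a median of 0.88 in log2(CPM + 1) against 0.68 for the lower genes, and 721 of them but only 221 of the lower genes differed more than 2-fold. No gene passed edgeR's quasi-likelihood test at an adjusted p of 0.05 (0.0% of genes; 467 had an unadjusted p under 0.05, and the smallest adjusted p was 0.337), and DESeq2 called 48 higher and 1 lower. With library letter, which is also the chemistry, as a block in edgeR, 78 genes were called higher (0.928%) and 5 lower (0.0595%), of which 75 and 4 were also non-overlapping. The direction of calls depended on the scaling. TMM gave 55.4% of non-overlapping genes as higher, DESeq2's size factors 49.5% and scaling to total UMIs 76.2%, because the median gene differed by 0.07, -0.01 and 0.31 in log2 under these scalings. All 1792 higher genes remained so with total UMIs and all 1443 lower genes with DESeq2's factors, but only 796 of the lower genes did with total UMIs and 1587 of the higher genes with DESeq2's factors. When each cell was thinned before summing, so that cells counted equally, 3601 genes could be tested. There 548 of 671 higher genes and 603 of 924 lower genes were still non-overlapping in the same direction.

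Most of these genes remained non-overlapping once the mixture of cells was held constant. Each library was split into cells with krt5 only, col2a1a only, retinal genes only, more than 1 of these, or none, and its levels were rebuilt with the same share of RNA from each stratum. The TMM factors of the original libraries (0.901 and 0.937 at 48 hpf, 1.06 and 1.12 at 72 hpf) were kept and not recomputed. The same shift toward lower levels at 72 hpf thus enters the measured and the rebuilt differences. Its part in the percentages kept was not tested. Of the higher genes 1581 of 1792 (88.2%) still did not overlap and kept a median of 96.2% of their log2 difference. Of the lower genes 1100 of 1443 (76.2%) did, with a median of 74.98% kept. Under 50% of the difference was kept by 86 higher and 195 lower genes. Fewer genes remained when every cell with a retinal UMI was left out instead. There 838 of 1340 higher and 748 of 1230 lower genes that could be tested still did not overlap in the same direction. Another 7 and 16 were reversed. The strata rest on 1 or a few genes after thinning, so that cells of a class without such a UMI fell among cells with none, and kept differences can still include shifts in mixture inside a stratum. Levels given below inside a stratum are CPM of that stratum's own UMIs, without TMM, and on that scale the median gene was higher at 72 hpf by 0.31 to 0.41 in log2(CPM + 1), so that a small excess at 72 hpf inside a stratum is within this shift.

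How much of its difference a gene kept varied with the stratum it was highest in. That stratum was taken from UMIs pooled over the 4 libraries. Because col2a1a cells gave more UMIs at 72 hpf and retinal cells fewer, the label itself leans to col2a1a for higher genes and to retinal for lower genes. The counts by stratum are thus partly built in. Among genes with a mean of at least 20 CPM, 740 of 4151 (17.8%) were higher and 1049 (25.3%) lower at 72 hpf. Over all 4151 genes, 1280 were highest in col2a1a cells, 496 in krt5 cells and 1936 in retinal cells. Of the higher genes, 443 had their highest level in col2a1a cells, and 396 of these still did not overlap, with a median of 93.2% kept. Another 183 were highest in krt5 cells, where 130 still did not overlap and 66.9% was kept. Only 37 were highest in retinal cells, all of which still did not overlap, and their median difference grew to 124%. The lower genes were mostly retinal, with 894 of 1049 highest in retinal cells, where 735 still did not overlap and 74.1% was kept. The 20 lower genes highest in krt5 cells kept a median of 136%. So epithelial genes that were higher and retinal genes that were lower each lost part of their difference once strata were held constant, and the retinal genes that were higher gained. The direction of these shifts is also built in. Equal weights raised the share of retinal cells and lowered that of krt5 cells at 72 hpf, relative to the younger age. Genes concentrated in retinal cells must then move up, and those concentrated in krt5 cells down. The percentages kept thus show only how much of each difference remained.

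**Figure D2:**
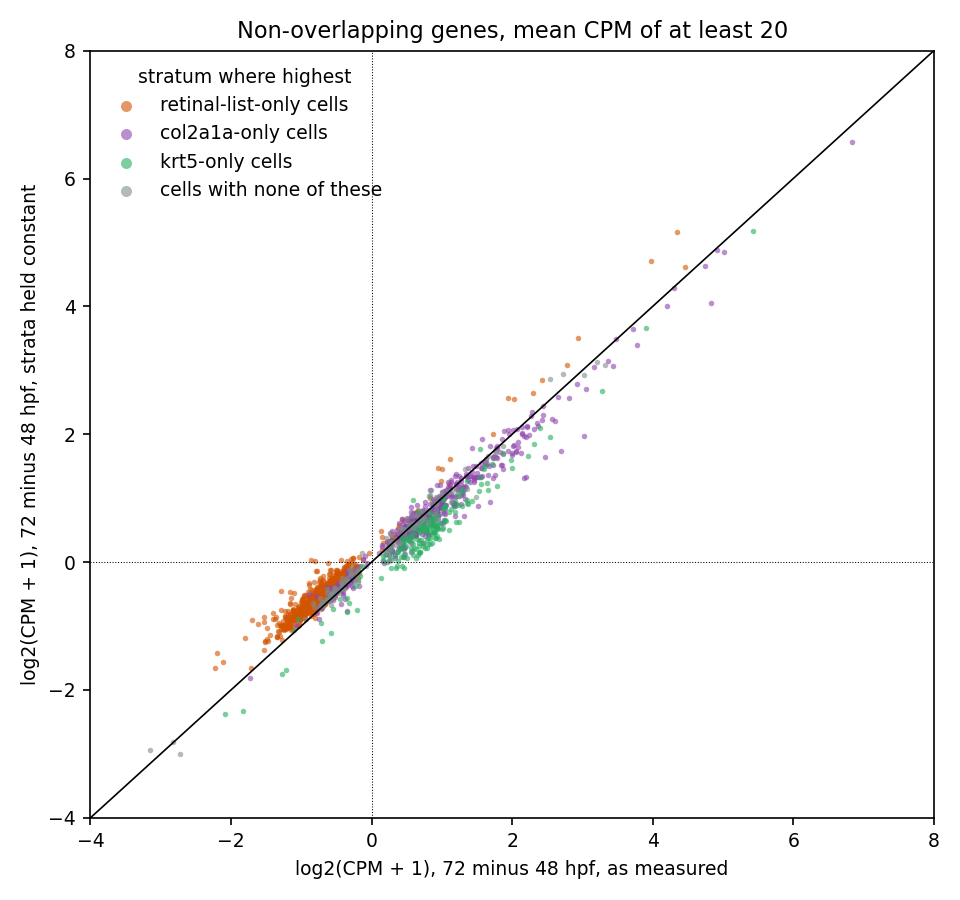
Difference in log2(CPM + 1) between 72 and 48 hpf as measured (x axis) and with strata held constant (y axis), 1 point for each of the non-overlapping genes with a mean of at least 20 CPM, coloured by the stratum where the gene was highest; the line marks equal values. Most retinal genes that were lower at 72 hpf lie above the line and most krt5-cell genes that were higher lie below it, with medians of 74.1% and 66.9% of the difference kept. The side of the line on which such genes lie follows from the equal weights of the strata.

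Genes of the matrix were among those with the widest gap between the ages. By rule the 12 widest gaps in each direction among genes with a mean of at least 20 CPM were taken, so that their values are a description. matn1, the cartilage matrix protein matrilin 1, had 0 UMIs in both 48 hpf libraries and 17.0 and 724 CPM in 72A and 72B. Against a floor of 3 UMIs over both 48 hpf libraries, it was at least 714-fold higher, a value carried mostly by 72B. zgc:172053, a gene without a name, also had 0 UMIs in both 48 hpf libraries and stood at 17.8 and 97.2 CPM at 72 hpf, at least 111-fold higher.

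Several secreted matrix proteins were nearly silent at 48 hpf. thbs4b, a thrombospondin, had 4.46 and 0.828 CPM at 48 hpf and 80.7 and 87.7 CPM at 72 hpf, a 31.8-fold difference of the means and 4.91 ± 0.76 (SE) in log2. fstl3, a follistatin-like binder of activin, had 8.03 and 0.414 CPM against 99.9 and 114 CPM, 25.3-fold. The 2 libraries of 72 hpf thus lay close together for these genes, in spite of their different chemistry. abi3bpb, which encodes a matrix-binding protein, had 2.68 and 2.07 CPM against 35.4 and 105. spon2b, a spondin, had 4.16 and 4.56 CPM against 39.8 and 80.6. These 4 genes kept 89.5% to 99.4% of their difference with strata held constant, and had adjusted p between 0.011 and 0.032 in edgeR with library letter as a block.

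The other genes of the group came from different tissues. slc1a2b, the glutamate transporter of retinal glia, had 3.57 and 6.63 CPM at 48 hpf and 172 and 83.1 CPM at 72 hpf, 25.04-fold. rhbg, an ammonia transporter, had 9.51 and 16.2 CPM against 309 and 131, 17.1-fold. It was higher in krt5 cells (37.0 and 34.4 CPM against 258 and 219), in retinal cells (1.26 and 2.37 against 421 and 226) and in cells with none of the markers (2.31 and 12.5 against 353 and 75.3). rhbg thus differed between the ages in 3 separate strata. shhb, a hedgehog ligand, had 3.27 and 3.73 CPM against 30.2 and 54.8, and its paralog shha, named after its values were seen, 1.19 and 5.80 against 23.9 and 42.4. Both were highest in cells with none of the markers, where shhb stood at 62.9 and 90.4 CPM and shha at 57.3 and 86.9 CPM at 72 hpf. In krt5 cells shhb had 36.4 and 60.9 CPM and shha 16.4 and 32.8 CPM at 72 hpf. crip1 (8.92 and 15.7 against 121 and 109), zwi (1.19 and 2.49 against 38.2 and 47.0) and ifitm1 (0.892 and 0 against 27.2 and 69.7) completed the 12.

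**Figure D3:**
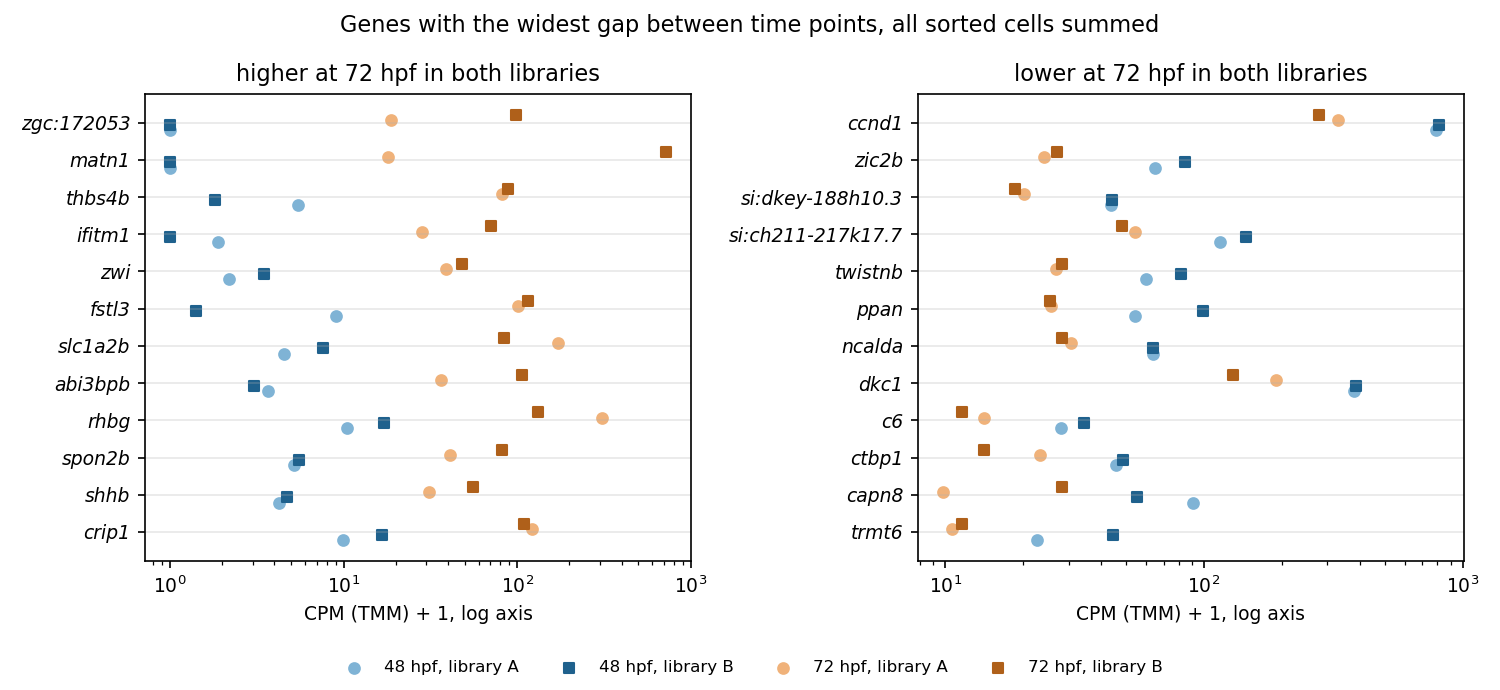
CPM + 1 (x axis, log scale) in each library for the 12 genes with the widest gap that were higher at 72 hpf and the 12 that were lower, with circles for library A and squares for library B. Genes that were higher run from at most 16.2 CPM to between 17.0 and 724 CPM. Genes that were lower have narrower gaps, such as ccnd1 from 789 and 812 to 328 and 278.

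Genes of the cartilage list were higher almost throughout. The paper names col2a1a, col9a2, cnmd and matn4 among genes of its corneal endothelium and stroma class at a later age. It also reports matn4 in corneal endothelium by in situ hybridization. Levels of this list thus cannot be read as those of cartilage alone. Of 11 tested, 9 were higher in both 72 hpf libraries, 0 were lower and 2 overlapped, against 21.3% of all genes, and the median log2 difference was 2.33 against 0.07 over all genes. col2a1a itself stood at 88.3 and 106 CPM at 48 hpf and 223 and 2840 CPM at 72 hpf, so that 72B lay far above 72A. Collagen IX, which decorates type II collagen fibrils, followed it: col9a2 had 157 and 56.7 CPM against 198 and 918, and col9a3 156 and 33.5 against 339.9 and 669.7. cnmd, encoding chondromodulin, had 199.8 and 33.1 CPM against 274 and 528, and matn4 373 and 241 against 519.7 and 1421. In the A libraries alone 9 of the 11 were higher at 72 hpf, with a median of 0.65, and in the B libraries all 11, with a median of 3.95. Direction was thus shared and size was not. sox9a, the transcription factor of chondrocytes, overlapped (1.49 and 21 CPM against 1.1 and 45.6), as did col11a1a.

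The differences outlasted the larger share of col2a1a cells, but shrank. With strata held constant all 9 genes still did not overlap, but the median of the list dropped from 2.16 to 1.33 in log2(CPM + 1), and col2a1a kept 65.4%, col9a2 60.7%, cnmd 60.4% and matn4 58.0% of its difference. Inside col2a1a cells, of which the 4 libraries held 33, 23, 55 and 89, matn1 had 0 and 0 CPM at 48 hpf and 509 and 7447 CPM at 72 hpf. There matn4 had 3123 and 2072 CPM against 9073 and 13232, and col9a3 2560.2 and 1358 against 7839 and 6379.7. The col2a1a level in these same cells cannot be read as a separate result, since col2a1a chose them.

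Genes of the neural crest and periocular mesenchyme list and of the stromal list were higher or overlapped, and none was lower. Of 15 neural crest and periocular mesenchyme genes 7 were higher, against 21.3% of all genes, and all 7 still did not overlap with strata held constant. osr1 had 37.5 and 19.9 CPM against 85.4 and 92.3, and eya2 55.0 and 19.5 against 71.1 and 80.3. foxc1b lay just inside the criterion, at 60.4 and 29.0 CPM against 60.7 and 84.2, and overlapped with DESeq2's size factors. The immediate early gene fosab lay just outside it (723 and 1055 against 884 and 1179). In the A libraries alone only 7 of the 15 genes were higher at 72 hpf, in the B libraries all 15. Of 15 stromal genes 6 were higher, against the same 21.3%, among them the corneal proteoglycan lum (106 and 91.5 CPM against 186 and 305) and col5a2a (16.4 and 8.70 against 64.5 and 270.1). The abundant fibrillar collagens overlapped, with col1a2 at 2146 and 5146 CPM against 2665 and 5921, and dcn overlapped as well (241 and 255 against 222 and 321).

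The annular ligament genes listed with scinla were mostly higher. Of 11 tested, 9 were higher and 2 (fabp11a and phgdh) were lower, against 21.3% and 17.2% of all genes. These 2 overlapped with total UMIs, and 8 of the 9 still did not overlap with strata held constant. The paper chose scinla and myoc from earlier literature and in situ hybridization. It reported others, such as hgd and phgdh, as annular ligament genes from these same cells, so that the list is not independent evidence of a direction. The paper's markers of its annular ligament class AL1, hmgn2, hmgb2b, mcm7 and pcna, are in other lists below. Of these hmgb2b overlapped and the rest were lower at 72 hpf. scinla, which encodes an actin-severing protein, had 251 and 488 CPM against 674 and 951, and kept 65.2% of its difference. Its total hid opposite differences within strata. Inside krt5 cells it was lower at 72 hpf (1187 and 1293 CPM against 1135 and 670), and in cells with none of the markers it was far higher (12.3 and 45.7 against 1019 and 2174). fstl3 likewise stood in cells with none of the markers at 18.5 and 0 CPM against 291 and 274. Pooled over the libraries, si:ch211-251b21.1 of the list reached 585 CPM in retinal cells against 145 CPM in cells with none of the markers. Its total thus cannot be read as that of annular ligament cells alone. hgd and hpdb, enzymes of tyrosine breakdown, had 13.4 and 5.38 CPM against 19.5 and 42.1, and 0.892 and 0 against 4.94 and 15.6.

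The 9 higher genes included myoc, which encodes myocilin and is mutated in human glaucoma. myoc had 23.2 and 3.31 CPM against 31.6 and 66.5, and inside col2a1a cells 34.4 and 46.0 CPM against 688 and 376. angptl7, a secreted protein of the human trabecular meshwork and cornea, had 12.2 and 3.31 CPM against 148 and 70.4, 3.79 in log2, with an adjusted p of 0.010 with the block. It was named after its values were seen. angptl7 was highest in col2a1a cells, at 218 and 0 CPM against 2629 and 497. The cells that bear col2a1a therefore held genes of more than cartilage, and a share of col2a1a cells is not a share of chondrocytes.

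Of 14 genes of the basal epithelium tested, 6 were higher and 0 lower, against 21.3% and 17.2% of all genes. krt5 had 3147 and 4276 CPM at 48 hpf and 8416 and 7396 CPM at 72 hpf, 2.13-fold, with an adjusted p of 0.039 with the block. krtt1c19e, another keratin of the basal layer, is in no list and was named after its values were seen. It had 2857 and 6376 CPM against 9059.7 and 11190.0. tp63, the master transcription factor of basal keratinocytes, had 78.2 and 117 CPM against 150.5 and 193, and epcam 802 and 1070.2 against 1365 and 1371. Of 17 genes of the superficial epithelium 2 were higher, 0 lower and 15 overlapped, against the same shares of all genes, with krt4 at 9212 and 26821 CPM against 10759 and 11927. The median log2 difference was 0.65 for the basal and -0.01 for the superficial genes. The median of the superficial genes was above 0 with total UMIs (0.23), and it was 0.22 in the A libraries (11 of 17 higher at 72 hpf) and -0.66 in the B libraries (6 of 17 higher). The difference between the lists was not tested.

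Holding strata constant lowered the median of both lists, from 0.60 to 0.14 in log2(CPM + 1) for the basal and from -0.29 to -0.69 for the superficial genes. krt5 kept 45.7% of its difference, krtt1c19e 51.1%, tp63 34.3%, epcam 38.9% and cldni 10.8%, and 4 of the 6 basal genes still did not overlap, while the basal list's keratin krt18a.1 became non-overlapping and lower. Neither higher superficial gene did, and 3 superficial genes, krt4, cyt1 and cyt1l, became non-overlapping and lower. Inside krt5 cells krt4 stood at 41959 and 63089 CPM in the 48 hpf libraries and at 31756 and 28737 CPM in those of 72 hpf. The keratin cyt1 had 19219 and 31551 CPM there against 8086 and 14373, and cyt1l 8689.9 and 21227 against 3952 and 5285. In the same cells krtt1c19e had 13384 and 16908 CPM against 28066 and 29115, and tp63 341 and 268 against 389.8 and 455. Within krt5 cells these 2 basal genes thus lay above, tp63 by little more than the median gene, and the 3 superficial genes below their 48 hpf levels, whereas the keratin krt91 overlapped (13762 and 41074 CPM against 13240.0 and 28258). The basal list did not lean up there. Of its 14 genes 4, krt5 itself among them, were higher and 2 lower, against 27.4% and 6.12% of all genes. Of the 17 superficial genes 1 was higher and 5 lower. krt5 chose these cells, so its own level there is no separate result.

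Other genes of krt5 cells were higher by more than the keratins. They were named after their values were seen. rbp4, the retinol carrier, had 196 and 771 CPM against 1527 and 2429.9 CPM in the whole libraries, kept 79.9% of its difference, and stood at 716 and 2058 CPM against 4424 and 5685 inside krt5 cells. igfbp7, an insulin-like growth factor binding protein, had 110.0 and 173 CPM against 364 and 458. zgc:136930, without a gene name, had 111 and 297 CPM against 1427 and 2199, 3.15 in log2, and its adjusted p with the block was 0.007. si:ch211-251f6.6 had the lowest p in edgeR without a block. It had 0 UMIs in both 48 hpf libraries and 45.6 and 27.9 CPM at 72 hpf, at least 70.8-fold higher, but its adjusted p was 0.337. Among the genes with the widest gap that were lower, c6, a complement component, and capn8, a calpain protease, were the only ones highest in krt5 cells. capn8 had 89.8 and 54.3 CPM against 8.79 and 27.2, and c6 27.1 and 33.5 against 13.2 and 10.6.

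**Figure D4:**
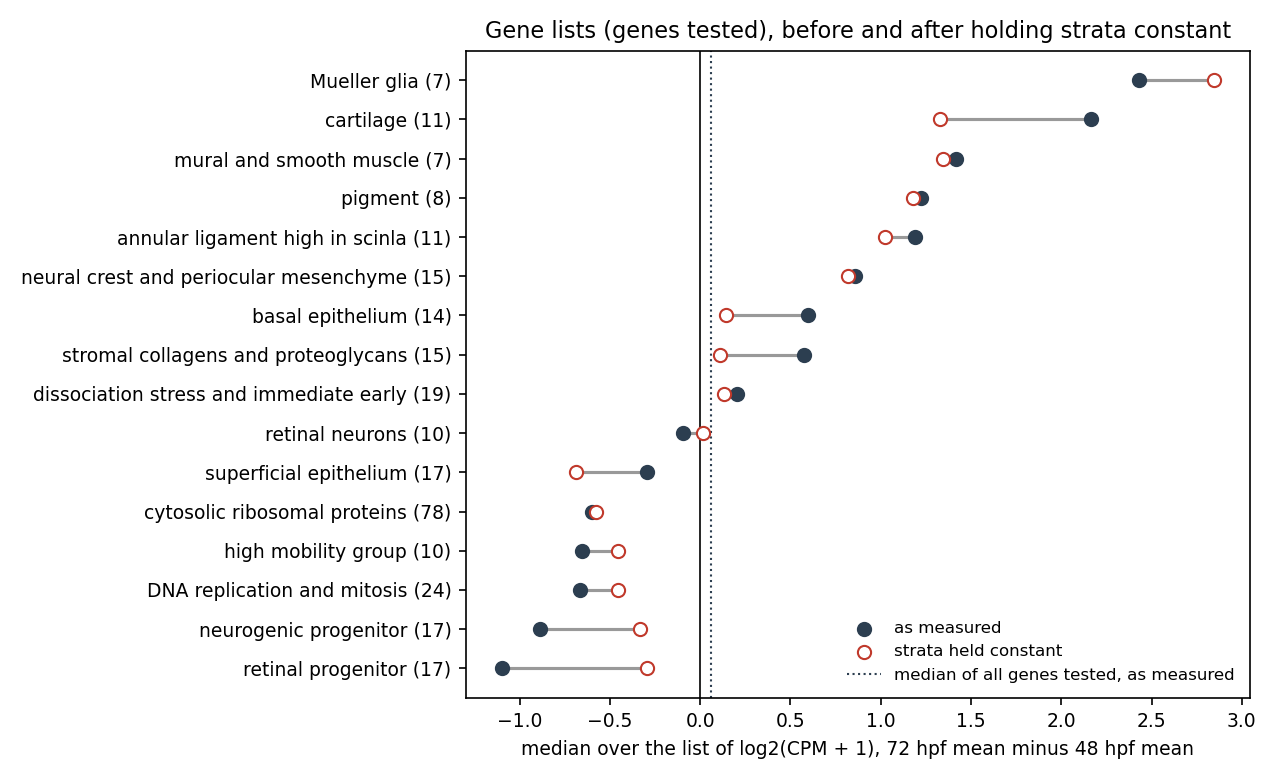
Median over each gene list of the difference in log2(CPM + 1) between 72 and 48 hpf (x axis) as measured and with strata held constant, with the number of genes tested in brackets. The Mueller glia list moves away from 0 when strata are held constant, the cartilage list moves from 2.16 to 1.33, the retinal progenitor list moves from -1.1 to -0.29, and the ribosomal protein list hardly moves.

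Genes of retinal progenitors were lower or overlapped, and only a small part of their difference was left once strata were held constant. Of 17 progenitor genes 6 were lower and 0 higher, and of 17 neurogenic genes 7 were lower and 0 higher, against 17.2% of all genes lower. Of these 3 and 4 still did not overlap with strata held constant. The medians moved from -1.1 to -0.29 and from -0.89 to -0.33. Size differed between libraries, with medians of -0.09 and -0.38 in the A libraries and of -1.54 and -1.5 in the B libraries, where 72B had the fewest retinal cells. hes6, which promotes neuronal differentiation, had 376 and 285 CPM against 192 and 59.0, and dla, a Delta ligand of Notch, 106 and 113 against 71.4 and 32.9. atoh7, needed for retinal ganglion cells, overlapped (108 and 57.2 against 59.3 and 6.37). fabp7a, the most abundant gene of the retinal list, overlapped widely, at 3018 and 2484 CPM against 7469 and 504.

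ccnd1, cyclin D1, which drives progenitors into the cell cycle, had the widest gap of the lower genes with a mean of at least 20 CPM. It stood at 789 and 812 CPM in the 48 hpf libraries and at 328 and 278 CPM in those of 72 hpf, a 2.64-fold difference, -1.40 ± 0.43 (SE) in log2. The libraries of each age lay close together. Its adjusted p was 0.039 in edgeR with the block and 0.822 without it. It kept 63.8% of the difference with strata held constant, and inside retinal cells it had 1165 and 1674 CPM at 48 hpf against 727 and 1021 at 72 hpf, lower in both libraries. In krt5 cells, where it was low, the ages overlapped (147 and 90.8 against 94.7 and 86.2). In cells with none of the markers it was lower at 72 hpf (495 and 468 against 258 and 334). The paper names ccnd1, and mdka of the same list, among genes high in its annular ligament class AL1. The total of ccnd1 thus cannot be read as that of retinal cells alone. zic2b, a zinc finger transcription factor, had 63.6 and 83.7 CPM against 23.1 and 26.2, but overlapped with strata held constant.

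Mueller glia genes were higher although retinal cells gave less RNA. Of 7 tested, 5 were higher, against 21.3% of all genes, 0 lower and 2 (gfap and aqp1a.1) overlapped. Inside retinal cells all 7 were higher, against 33.0% of all genes there. The median difference was 2.43 in log2(CPM + 1) as measured and 2.85 with strata held constant. glula, the glutamine synthetase of glia, had 63.9 and 26.1 CPM against 448 and 113. rlbp1a, the retinaldehyde-binding protein of Mueller glia, had 4.46 and 23.6 CPM against 584 and 111, and cahz, a carbonic anhydrase, 5.65 and 2.90 against 92.8 and 15.2. Inside retinal cells slc1a2b had 7.55 and 7.12 CPM at 48 hpf and 567 and 726 at 72 hpf, and glula 45.9 and 33.2 against 1251 and 622. efhd1 and vil1, named after their values were seen, showed the same pattern inside retinal cells, at 3.15 and 2.37 CPM against 639.9 and 229, and at 0.629 and 0 against 59.0 and 48.6. apoeb, the apolipoprotein E of the list, was instead highest in krt5 cells (822 and 331 CPM against 2156 and 1523), so that its total cannot be read as glial. None of 4 photoreceptor genes and none of 10 retinal neuron genes was non-overlapping, against 38.5% of all genes in either direction. vsx1 of bipolar cells, for example, had 67.2 and 63.0 CPM against 87.0 and 7.07.

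Genes of DNA replication and mitosis were lower as a group. The paper uses pcna and mcm7 of this list, with hmgn2 and hmgb2b, as markers of its annular ligament class AL1. Of 24 tested, 18 were lower, 0 higher and 6 overlapped, against 17.2% of all genes lower, and 16 still did not overlap with strata held constant. Of the 24, 10 were lower when libraries were scaled to total UMIs. pcna, the sliding clamp of the replication fork, had 1950.3 and 947 CPM at 48 hpf and 906 and 433 CPM at 72 hpf. It overlapped with total UMIs. mcm4 and mcm7, subunits of the replicative helicase, had 233 and 171 CPM against 114 and 105, and 441 and 367 against 259 and 199.8. Inside retinal cells 9 of the 24 were lower and 1 higher, against 8.09% and 33.0% of all genes there. mcm4, for example, had 283 and 261 CPM against 175 and 188 in these cells. Inside krt5 cells 3 were lower and 6 higher, against 6.12% and 27.4% of all genes there, and rrm2 had 198 and 131 CPM against 314 and 224. In cells with none of the markers 7 were lower and 0 higher, against 7.68% and 27.7% of all genes there. In col2a1a cells 3 were lower and 1 higher, against 9.76% and 19.1%. The median difference of the list in log2(CPM + 1) was -0.29 in retinal cells and -0.30 in cells with none of the markers. It was -0.37 in col2a1a cells and -0.01 in krt5 cells. The median of all genes was 0.41, 0.31, 0.37 and 0.33 in these strata. So the list lay below the median gene in every stratum, but in krt5 cells its own median hardly differed between the ages. Genes of mitosis proper were less uniform, with mki67 (129 and 187 CPM against 73.3 and 166) and top2a (118 and 158 against 101 and 162) overlapping. All 24 were lower in the A libraries alone and 23 in the B libraries. High mobility group genes, which encode abundant chromatin proteins, were lower for 3 of 10 and higher for 0, against 17.2% and 21.3% of all genes. hmgn2 stood at 8468 and 8133 CPM against 5786 and 2874, and hmgb2b overlapped (3543 and 1682 against 2129 and 801).

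Genes of the translation machinery were lower, and their differences in the whole libraries hardly changed with strata held constant. Within strata, the median difference of ribosomal protein genes in log2(CPM + 1) was -0.12 in krt5 cells and -0.43 in retinal cells. It was -0.52 in col2a1a cells and -0.37 in cells with none of the markers. Of 78 cytosolic ribosomal protein genes 48 were lower, 2 higher and 28 overlapping, against 17.2% of all genes lower, and all 48 still did not overlap with strata held constant. Their median log2 difference was -0.61, and -0.36 with total UMIs, where 33 were lower. Their summed level was 432140.0 and 353120.0 CPM at 48 hpf and 295160.0 and 227070.0 at 72 hpf. rplp1, a protein of the ribosomal stalk, had 13628 and 10164 CPM against 8885 and 6040.3, and inside retinal cells 13705 and 11381 against 10041 and 6801. In krt5 cells the ages overlapped for rplp1. There 13 of the 78 genes were lower and 5 higher, against 6.12% and 27.4% of all genes. In retinal cells 40 were lower and 2 higher, against 8.09% and 33.0%. In col2a1a cells 46 were lower and 1 higher, against 9.76% and 19.1%. In cells with none of the markers 31 were lower and 3 higher, against 7.68% and 27.7%. The 2 genes that were higher in the whole libraries were rpl6 and rpl9.

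Genes that build ribosomes went the same way, and several had the widest gaps. dkc1, the pseudouridine synthase of ribosomal RNA, had 378 and 386 CPM against 189 and 129. ppan, which acts in maturation of the large subunit, had 53.2 and 98.6 CPM against 24.7 and 24.4, and twistnb, a subunit of RNA polymerase I, 58.9 and 80.3 against 25.8 and 27.2. These 3 kept 77.5%, 90.7% and 87.1% of their difference. Because of them a list of 30 such genes was written after their values were seen, so that its count supports nothing by itself. Of 27 tested, 22 were lower, 0 higher and 5 overlapping, against 17.2% of all genes lower, and 18 still did not overlap with strata held constant. With total UMIs 16 were lower. Inside retinal cells nop58 had 569 and 764 CPM against 391.5 and 313, and dkc1 477 and 627 against 307 and 288, while in krt5 cells dkc1 overlapped (117 and 101 against 113 and 104). hsp90ab1, a cytosolic chaperone, had 6261 and 7888 CPM against 3789 and 3793 and was 1 of the 5 genes called lower with the block, with an adjusted p of 0.0499.

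**Figure D5:**
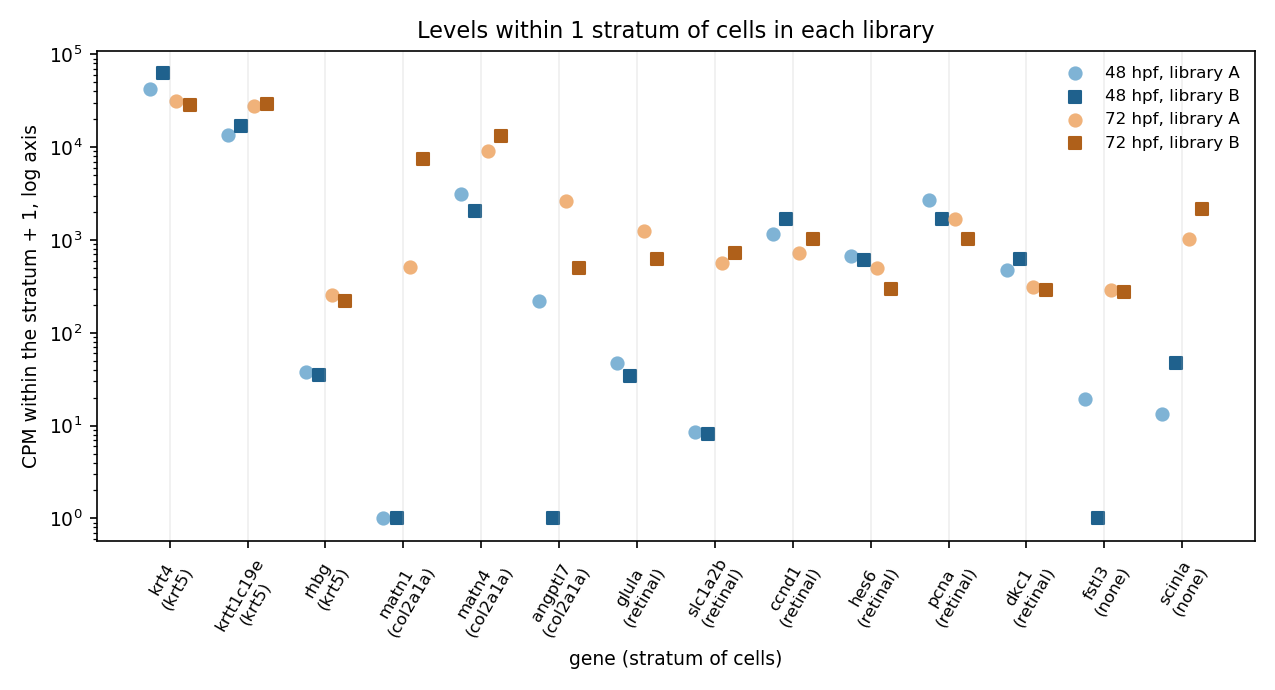
CPM + 1 inside 1 stratum of cells (y axis, log scale) for 14 genes in each library, with the stratum under the gene name. Within the stratum shown, krt4 is lower and krtt1c19e, rhbg, matn1, glula and slc1a2b are higher at 72 hpf. In the retinal stratum ccnd1, hes6, pcna and dkc1 are lower. A stratum can hold more than 1 kind of cell.

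Markers of further cell types differed by library more than by age in most cases. Mural and smooth muscle genes were higher for 6 of 7, against 21.3% of all genes, such as myl9b (44.0 and 20.7 CPM against 73.0 and 83.1) and ednraa (38.9 and 19.5 against 85.1 and 66.8), and 5 still did not overlap. Of 8 pigment genes tested none was non-overlapping, against 38.5% of all genes in either direction. Summed over the pigment list the level was 49.6 and 476 CPM at 48 hpf and 42.6 and 6353 at 72 hpf, so that 72B alone was high, with tyrp1b at 5.65 and 139 CPM against 18.4 and 3134. Of 9 matched erythrocyte genes, only cahz could be tested, which is also a gene of Mueller glia, and the globin hbae3 had 663 UMIs in 72B and at most 2 in any other library. The 16 matched lens genes summed to 356 CPM in 72A and to between 8.13 and 9.11 CPM in the other 3 libraries, and 0 of them could be tested. The 7 matched leukocyte genes had at most 8 UMIs each in any library. The part that pigment cells of 72B, lens cells of 72A and blood of 72B had in the differences above was not tested. Of 19 genes of dissociation stress and the immediate early response 3 were higher (ier2a, hspa5 and klf2a), 1 (hspa8) was lower and 15 overlapped. Of all genes 21.3% were higher and 17.2% lower.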

How the data were processed

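Cells were sorted by the authors for GFP from trypsin-dissociated whole eyes. As deposited, the values are counts, whole numbers of UMIs for each RefSeq feature and cell, from the authors' run of Cell Ranger 6.0 against GRCz11 extended by eGFP, and were not normalized. Features (16283) sharing a symbol were added up, leaving 15413 symbols, with 0 mitochondrial genes among them. The table of cells gave library and chemistry. The labels name one chemistry version and the table of cells 2, and the table was followed. The paper calls the 2 libraries of an age biological replicates. All 3137 cells were kept, with no caller for doublets; 10 cells of 48A had under 400 UMIs and were placed among cells with none of the markers. Depth limits precision: intervals are exact binomial (95%) and cover counting error only.

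Counts were summed per library, filtered with filterByExpr and tested with edgeR 4.0.16 (quasi-likelihood, TMM, Benjamini-Hochberg, R 4.3.3) between 48 and 72 hpf. Alternatives included DESeq2 1.42.0 (adjusted p not given for 489 genes), other scalings, all 10 libraries, thinned cells, the joined matrix and leaving out each library. Of the tests, only the edgeR fit without a block had been checked on simulated counts, without the filter on low counts. The fit with the block and DESeq2 had not been checked in this way. Fold changes are ratios of mean CPM after TMM, for genes at 0 against 3 UMIs over both 48 hpf libraries on the same scale; differences kept are on log2(CPM + 1). Strata were weighted by their mean share of UMIs over the 4 libraries. Library letters mark the chemistry, and the deviations of the A libraries from their age means correlated across genes at r = 0.591, so values with the letter as a block are given beside the results.

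Genes named were, with a mean of at least 20 CPM, the 12 with the widest log2 gap in each direction, the 12 with the largest fold change among genes past the threshold (0 genes passed), markers the study uses, and the members of each list highest in CPM. Others are said to have been chosen after their values were seen. The members and lists were chosen with earlier results of these data known; 298 of 321 list genes matched a symbol. Python 3.11.15 was used for the rest.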

Additional observations from a re-analysis of the deposited data

How the results depend on the processing

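With edgeR's quasi-likelihood test the 0 genes called higher and 0 called lower stayed at 0 with DESeq2's size factors, total UMIs, thinned cells, the joined matrix, cells without a retinal UMI and all 10 libraries. They became 186 and 22 without the filter on low counts, 78 and 5 with the replicate block, and 48 and 1 in DESeq2, and ranged from 63 to 122 and from 4 to 22 when one library was left out, where the lone library of an age was assumed to vary like the other age. Of the 83 genes called with the block, 41 were also called by DESeq2 and 0 with all 10 libraries. The 1792 higher and 1443 lower non-overlapping genes became 804 and 860 with thinned cells (3601 genes tested), 1074 and 1083 in cells without a retinal UMI (6102 tested), 2550 and 796 with total UMIs, and ranged from 2866 to 3709 and from 2739 to 3578 without one library, where the criterion is weaker. Of the genes with strata held constant, 1581 and 1100, other strata or weights gave 1407 to 1614 and 1040 to 1128, and leaving out one library 2566 to 3239 and 2198 to 2355. The difference in the share of krt5 cells, 3.13 percentage points, ranged from -3.22 (without 48A) to 9.47, that of col2a1a cells, 9.20, from 5.17 to 13.2, and that of retinal cells, -14.9, from -22.3 to -7.41. The cause of these shifts was not tested. Few or none of the lens, leukocyte and photoreceptor genes passed the filter, and the reason was not tested.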

Other observations

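Further genes that no list held differed between the ages. Genes of retinoid handling and drug metabolism were among those called higher in edgeR with library letter as a block, named after their values were seen: crabp1b, dhrs3a (2.68 and 2.90 CPM at 48 hpf, 16.5 and 52.7 at 72 hpf), cyp1c1 (2.97 and 2.49 against 15.9 and 100.4) and cyp1c2. Genes of extracellular signalling and matrix in the same set were tnmd (0.892 and 2.07 against 9.61 and 67.2), htra1b, timp2a, ccn2a (27.6 and 29.0 CPM at 48 hpf, 112 and 284 at 72 hpf), vcanb (2.68 and 1.66 against 18.9 and 83.4) and the transcription factor twist2 (5.05 and 3.73 against 23.3 and 66.1). ccn2a, vcanb and twist2 kept 84.7% to 98.2% of their difference with strata held constant. apoda.1, an apolipoprotein D gene, was called lower (98.7 and 6.63 CPM against 4.67 and 0.707), mostly through the high level of 48A.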
